A study of Mus musculus with 29 samples.

Results

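The C/EBP family comprises transcription factors of the basic leucine zipper (bZIP) type, which bind DNA as dimers. The 4 members described here, Cebpa, Cebpb, Cebpd and Cebpg, are 4 of the 54532 genes of the deposited count table and 4 of the 15603 that had enough counts to test. They were found by their Ensembl identifiers, and the family was chosen by a measured value: the lower Cebpb count of K556R livers was known beforehand. The genotype differences of the members are therefore given as descriptions, without a test, whereas the effect of refeeding within each genotype and the difference between those effects are tested. If the refeeding values were also in view when the family was chosen, those tests are not independent of the choice.

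The libraries were made from livers of obese male mice. In the K556R mice, Cre recombination at 8 weeks of age induced a hepatocyte-specific Prox1 allele in which the lysine that carries the small protein SUMO is replaced by arginine. Prox1 encodes a homeobox regulator of hepatocyte identity and metabolism. All mice then received 18 weeks of a diet with 45% fat and 20% fructose, and livers were taken in the refed or the fasted state at ZT 15 to 17. The groups are K556R refed (n = 8), wild type (WT) refed (n = 6), K556R fasted (n = 7) and WT fasted (n = 8), with 15 libraries in batch 1 and 14 in batch 2. The titles call the genotypes Cre and Ctrl, while the sources used here give neither the length of the fast nor whether WT mice received Cre. The labels number the replicates without naming an animal for each, so the p-values rest on the spread among libraries, part of which may be technical.

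Cebpa encodes a factor that maintains the metabolic programme of hepatocytes. Cebpb and Cebpd are inducible genes known to respond to cyclic AMP, glucocorticoids and interleukin-6, and Cebpb acts on gluconeogenic and acute phase genes in liver. Cebpg encodes a short protein without an activation domain that pairs with other bZIP proteins such as ATF4. The long and short protein forms of C/EBPα and C/EBPβ arise in translation from a single mRNA each, and counts of reads per gene do not show them.

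In mm10, Cebpa (ENSMUSG00000034957) lies on the forward strand at chr7:35119293-35121928 and Cebpg (ENSMUSG00000056216) on the reverse strand at chr7:35046422-35056573, with 62719 bases between them. Cebpb (ENSMUSG00000056501) lies on the forward strand at chr2:167688915-167690418 and Cebpd (ENSMUSG00000071637) on the forward strand at chr16:15887286-15891031. The exons of Cebpa, Cebpb and Cebpd each form 1 uninterrupted block, and those of Cebpg form 3. The RefSeq table used here (GRCm38.p6) matched 3 of the 4 members, all but Cebpd. Their 250 bases before the start are shown so that Cebpb, which changed with feeding, can be set beside Cebpa and Cebpg, which did not pass the test. They are chr7:35119043-35119292 for Cebpa, chr2:167688665-167688914 for Cebpb and chr7:35056567-35056816 for Cebpg, each printed 5′ to 3′ on the strand of its gene. The gene spans above are those of GENCODE M21, whereas these starts are those of RefSeq. For Cebpg the 2 differ, and its stretch overlaps the GENCODE span, which reaches to 35056573. Capitals mark every match, on either strand, to the cyclic AMP response element half-site TGACG, to the TATA box TATAAA or to the CCAAT box CCAAT.
Cebpa: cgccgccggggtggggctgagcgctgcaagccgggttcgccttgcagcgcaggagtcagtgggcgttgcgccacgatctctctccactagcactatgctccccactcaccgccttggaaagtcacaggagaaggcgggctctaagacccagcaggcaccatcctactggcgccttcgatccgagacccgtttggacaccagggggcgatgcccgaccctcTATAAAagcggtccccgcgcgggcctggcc
Cebpb: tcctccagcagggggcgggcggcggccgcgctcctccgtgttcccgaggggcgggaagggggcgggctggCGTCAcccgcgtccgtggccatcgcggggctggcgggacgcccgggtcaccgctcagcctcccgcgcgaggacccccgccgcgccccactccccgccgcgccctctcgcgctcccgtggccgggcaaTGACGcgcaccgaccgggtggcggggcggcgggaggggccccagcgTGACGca
Cebpg: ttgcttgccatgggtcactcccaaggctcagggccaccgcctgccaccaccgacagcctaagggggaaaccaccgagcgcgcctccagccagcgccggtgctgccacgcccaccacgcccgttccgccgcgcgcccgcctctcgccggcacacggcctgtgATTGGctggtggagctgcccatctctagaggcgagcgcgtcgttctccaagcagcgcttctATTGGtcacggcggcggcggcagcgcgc

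The Cebpb stretch holds 3 matches to TGACG, at -180 to -176 on the reverse strand and at -53 to -49 and -7 to -3 on the forward strand, counted back from the first transcribed base, and the other 2 stretches hold 0. Of 32817 mouse promoters of the same length, 17.7% hold at least 1 such match and 0.689% hold 3 or more. These promoters were not matched to the Cebpb stretch for GC content, so the shares do not show how rare its matches are among like sequences. The Cebpa stretch holds 1 TATAAA at -30 to -25, a motif found in 12.4% of promoters, and the Cebpg stretch holds 2 CCAAT boxes, found in 33.8%. The full element TGACGTCA, present in 1.55% of promoters, and the C/EBP palindrome TTGCGCAA, present in 0.165%, had 0 matches in the 3 stretches. The looser C/EBP motif TTGCNNAA, present in 9.57%, likewise had 0 matches, and the motifs overlap in that TGACGTCA contains TGACG and TTGCNNAA contains TTGCGCAA. These matches are letters in a window and were not tested as binding sites.

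Libraries held 14385218 to 27278251 counts. Single libraries had 6294 to 12532 counts of Cebpa, 770 to 4779 of Cebpb, 906 to 1827 of Cebpg and 81 to 615 of Cebpd. Levels are given as CPM, the depth-scaled count with library sizes scaled by TMM, and, where genes are compared with each other, as CPM per kilobase of exon. Hepatocyte markers (7 of 7 tested, among them Alb and Apoa1) summed to 61626 to 110680 CPM across the libraries, against 203 to 762 CPM for 12 macrophage markers. Of the neutrophil markers 3 of 9 could be tested, all 9 together summed to 3.25 to 11.48 CPM, and Ly6g was at 0 in 27 libraries. Prox1 itself overlapped between the genotypes, at 150 ± 25.5 CPM in K556R refed and 164 ± 22.7 CPM in WT refed livers, and at 186 ± 12.3 CPM in K556R fasted and 174 ± 13.0 CPM in WT fasted livers (SD, n = 8, 6, 7 and 8). Its K556R minus WT difference was log2 -0.14 (SE 0.091) when refed, 0.02 (SE 0.11) in batch 1 and -0.30 (SE 0.13) in batch 2, and 0.09 (SE 0.087) when fasted. Whole-gene counts do not show which allele is transcribed. In bulk liver, fewer cells of a type and less RNA per cell cannot be told apart. The libraries farthest from the mean of their group and batch were K556R refed batch 1 replicate 4 and WT refed batch 2 replicate 1, at a root mean square log2 deviation of 0.47 each against 0.39 for the next. Without them the K556R minus WT difference of Prox1 when refed was -0.27 (SE 0.074), and some values of the members are also given without them.

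Per kilobase of exon, Cebpa was the highest of the 4 transcripts and Cebpd the lowest. Cebpa averaged 143 ± 15.9 CPM per kb in K556R refed, 169 ± 15.3 in WT refed, 146 ± 31.3 in K556R fasted and 169.8 ± 27.9 in WT fasted livers (SD). Cebpb followed with 37.5 ± 11.4 CPM per kb in K556R refed, 47.5 ± 16.3 in WT refed, 80.5 ± 16.2 in K556R fasted and 117 ± 32.3 in WT fasted livers. Cebpg stood at 12.9 ± 2.02, 12.0 ± 1.33, 12.3 ± 1.11 and 11.3 ± 1.20 CPM per kb in the same order of groups. The order of levels Cebpa, Cebpb, Cebpg, Cebpd held in 28 of 29 libraries, with exon length or the longest transcript as the length. In the remaining library, WT fasted batch 2 replicate 2, Cebpb exceeded Cebpa.

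Cebpa stood further above Cebpb in refed than in fasted livers. It was 4.06 ± 1.06 times as high as Cebpb per kilobase in K556R refed and 3.87 ± 1.15 times in WT refed livers, against 1.84 ± 0.35 times in K556R fasted and 1.53 ± 0.41 times in WT fasted livers (SD, n = 8, 6, 7 and 8). Refed libraries ran from 2.36 to 6.05 and fasted ones from 0.884 to 2.29, so the feeding states did not overlap. How many other pairs of genes were apart in this way was not counted. Cebpb made up 18.9% ± 3.72 of the CPM per kb of the 4 genes in K556R refed and 20.2% ± 5.0 in WT refed livers, against 33.2% ± 3.96 in K556R fasted and 38.2% ± 6.32 in WT fasted livers. Over both batches, the ratio of Cebpb to Cebpd per kilobase differed little between the groups, at 23.2 ± 3.76 in K556R refed, 23.1 ± 4.72 in WT refed, 23.0 ± 7.50 in K556R fasted and 22.2 ± 5.69 in WT fasted livers. In the same order of groups, its means were 21.4, 21.1, 19.3 and 18.8 in batch 1 and 25.0, 25.2, 28.0 and 25.6 in batch 2.

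**Figure D1:**
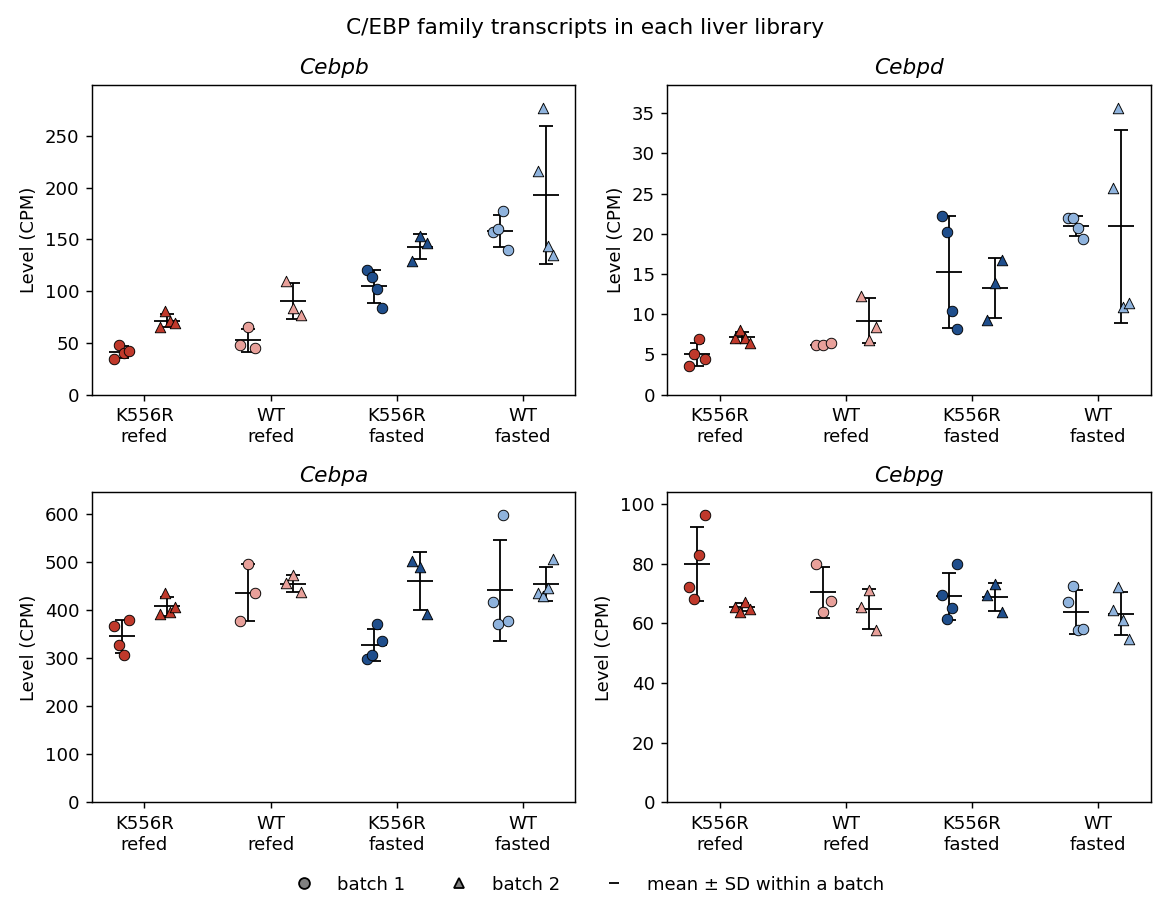
Level in CPM of the 4 members in each of 29 liver libraries, by group, with circles for batch 1, triangles for batch 2 and bars for the mean ± SD within a batch. The means of Cebpb and Cebpd sit lower in the refed groups than in the fasted groups of the same batch and genotype, while the refed and fasted ranges of Cebpa and Cebpg overlap in each batch and genotype.

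The first comparison asks what refeeding does to the family in each genotype. Cebpb and Cebpd fell on refeeding in K556R and in WT livers, to about the same share of their fasted levels, while Cebpa and Cebpg did not pass the test in either genotype. In K556R livers 2 of the 4 members were called, against 15.4% of all genes tested; in WT livers 2 of 4 were called, against 10.7%. For the mean of both genotypes 2 of 4 were called, both lower in refed livers, where 25.6% of all genes were called, 12.8% lower and 12.9% higher. Calls rest on edgeR's quasi-likelihood test with a batch term, at p-values below 0.05 after Benjamini-Hochberg adjustment over all 15603 genes. Where refed and fasted groups are said not to overlap, the share of all genes that did likewise was not counted.

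Cebpb, the inducible factor of gluconeogenic and acute phase genes, measured 34.6, 47.6, 40.3 and 42.4 CPM in batch 1 and 65.1, 80.4, 71.0 and 69.6 CPM in batch 2 of K556R refed livers. K556R fasted livers had 120.2, 113, 102 and 83.6 CPM in batch 1 and 129.6, 153 and 146 CPM in batch 2. Every K556R refed library lay below every K556R fasted library, in each batch and over both. The difference was log2 -1.18 (SE 0.14, adjusted p = 3.37e-07, edgeR), which leaves refed livers at 44.2% of the fasted level.

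WT refed livers held 48.1, 65.1 and 44.6 CPM of Cebpb in batch 1 and 110.2, 83.8 and 76.9 CPM in batch 2. WT fasted livers held 157, 160.1, 177 and 139 CPM in batch 1 and 216, 277, 143 and 135 CPM in batch 2. Refed and fasted WT libraries did not overlap either, and both groups reached their highest value in batch 2. The difference was log2 -1.35 (SE 0.14, adjusted p = 1.90e-07, edgeR), or 39.3% of the fasted level. Averaged over genotypes it was -1.26 (SE 0.099, adjusted p = 9.59e-11, edgeR), the 40th smallest p of all genes tested.

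Cebpd, a second inducible factor of the same kind, measured 3.58, 5.05, 6.97 and 4.46 CPM in batch 1 and 6.99, 8.01, 7.06 and 6.45 CPM in batch 2 of K556R refed livers. K556R fasted livers had 22.2, 20.3, 10.5 and 8.20 CPM in batch 1 and 9.32, 13.8 and 16.7 CPM in batch 2. The groups did not overlap, though the lowest K556R fasted library lay close to the highest K556R refed one. The difference was log2 -1.28 (SE 0.24, adjusted p = 0.000316, edgeR), or 41.0% of the fasted level.

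WT refed livers held 6.11, 6.14 and 6.39 CPM of Cebpd in batch 1 and 12.3, 6.84 and 8.46 CPM in batch 2. WT fasted livers held 21.9, 21.9, 20.7 and 19.4 CPM in batch 1 and 25.7, 35.7, 10.9 and 11.4 CPM in batch 2. In batch 1 the WT groups were apart, and in batch 2 WT refed replicate 1 lay above 2 of the 4 WT fasted libraries. The difference was log2 -1.47 (SE 0.25, adjusted p = 0.000232, edgeR), or 36.2% of the fasted level, and averaged over genotypes -1.38 (SE 0.17, adjusted p = 6.50e-07, edgeR). In batch 2 alone, Cebpd stood at -0.92 in K556R livers (SE 0.36, adjusted p = 0.107, edgeR) and at -1.19 in WT livers (SE 0.37, adjusted p = 0.0847, edgeR), so neither call held there within a genotype, while the mean of both genotypes did (-1.06, SE 0.26, adjusted p = 0.0105, edgeR).

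Cebpb fell in both batches within each genotype. In K556R livers it stood at log2 -1.34 in batch 1 (SE 0.14, adjusted p = 1.46e-05, edgeR) and at -1.02 in batch 2 (SE 0.20, adjusted p = 0.00480, edgeR). In WT livers it stood at -1.58 in batch 1 (SE 0.15, adjusted p = 1.53e-05, edgeR) and at -1.10 in batch 2 (SE 0.21, adjusted p = 0.00908, edgeR). Whether the batches themselves differ in the size of the fall was not tested. Macrophages also express Cebpb, and their 12 markers summed to 303 to 518 CPM in K556R refed and 236 to 424 CPM in WT refed livers, against 203 to 631 CPM in K556R fasted and 212 to 762 CPM in WT fasted livers. All 12 were lower in refed livers over both batches, with 0 called and a median difference of log2 -0.12. In batch 1 alone 11 were lower, with 1 called and a median of -0.36, and in batch 2 alone 4 were lower, with 0 called and a median of 0.10. Their part in the fall of Cebpb was not tested.

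Cebpa, the factor of the hepatocyte programme, had 307 to 435 CPM with a median of 386 CPM in K556R refed livers and 299 to 502 CPM with a median of 371 CPM in K556R fasted livers. It had 377 to 495 CPM with a median of 446 CPM in WT refed livers and 372 to 597 CPM with a median of 433 CPM in WT fasted livers. The highest WT fasted value was that of batch 1 replicate 3. Refed and fasted ranges overlapped in both genotypes and both batches. The refed minus fasted difference averaged over genotypes was log2 -0.02 (95% interval -0.16 to 0.12, adjusted p = 0.859, edgeR). Within K556R livers it was 0.089 (SE 0.14) in batch 1 alone and -0.20 (SE 0.090) in batch 2 alone, and passed in neither.

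Cebpg, the partner without an activation domain, had 64.01 to 96.3 CPM (median 67.8) in K556R refed and 57.9 to 80.0 CPM (median 66.5) in WT refed livers, against 61.5 to 80.0 CPM (median 69.7) in K556R fasted and 54.9 to 72.7 CPM (median 62.9) in WT fasted livers. All ranges overlapped. Its refed minus fasted difference averaged over genotypes was log2 0.08 (95% interval -0.04 to 0.20, adjusted p = 0.332, edgeR). Within K556R livers it was 0.22 (SE 0.12) in batch 1 alone and -0.093 (SE 0.092) in batch 2 alone, and passed in neither. Cebpa and Cebpg are neighbours on chromosome 7, and the intervals of their mean differences both leave out a fall of the size seen for Cebpb and Cebpd.

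**Figure D2:**
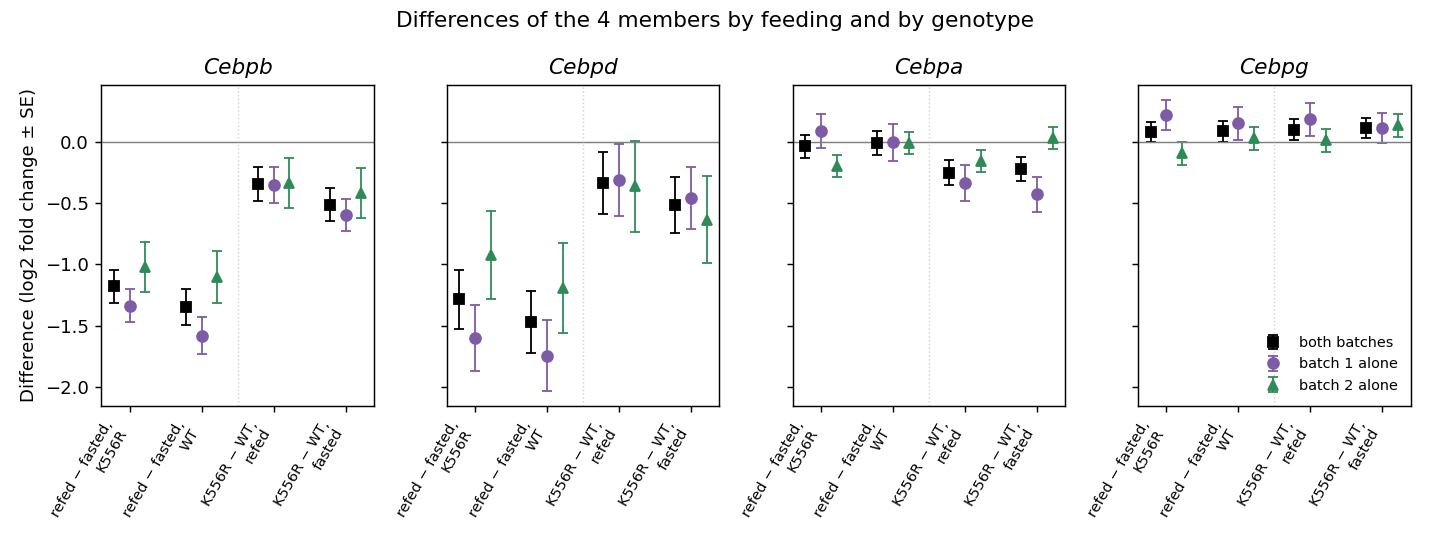
Log2 fold change ± SE of each member for refed minus fasted in K556R and in WT livers and for K556R minus WT in refed and in fasted livers, from both batches (squares), batch 1 alone (circles) and batch 2 alone (triangles). The refeeding differences of Cebpb and Cebpd lie between -0.92 and -1.74 in every fit, and those of Cebpa and Cebpg lie between -0.20 and 0.22. The genotype differences are shown as descriptions.

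The next comparison asks whether the response to refeeding depends on the genotype. For none of the 4 members did the K556R effect of refeeding differ from the WT effect in the test of that difference. It was log2 0.17 for Cebpb (95% interval -0.23 to 0.57), 0.18 for Cebpd (-0.52 to 0.88), -0.03 for Cebpa (-0.31 to 0.26) and -0.01 for Cebpg (-0.25 to 0.23), each with an adjusted p of 1.00 (edgeR). Of all genes tested, 0% were called in this contrast (0 genes by edgeR and 0 by DESeq2, with 440 at an unadjusted p below 0.05 by edgeR). The intervals of Cebpb and Cebpd still hold differences of up to 0.57 and 0.88 between the genotypes' responses. Leaving out 1 library moved the value of Cebpb between 0.10 and 0.27 and that of Cebpd between 0.051 and 0.34, lowest without WT fasted batch 2 replicate 2 and highest without WT refed batch 2 replicate 1. Without the 2 libraries farthest from their group mean they were 0.28 (SE 0.20) and 0.39 (SE 0.35).

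The last comparison sets K556R livers against WT livers in the same feeding state. The values that led to the choice of this family belong to this contrast, so they are given without a test. Where the genotypes lay apart in a set of libraries, the share of all genes apart in that set was not counted. Such gaps are descriptions too. Cebpb averaged 56.4 ± 17.1 CPM in K556R refed and 71.4 ± 24.4 CPM in WT refed livers, and 121 ± 24.3 CPM in K556R fasted and 176 ± 48.6 CPM in WT fasted livers (SD, n = 8, 6, 7 and 8). The difference was log2 -0.34 (SE 0.14) when refed, -0.51 (SE 0.13) when fasted and -0.43 (SE 0.097) as the mean of both. In batch 1 the K556R fasted libraries, at 83.6 to 120.2 CPM, all lay below the WT fasted ones, at 139 to 177 CPM. In batch 2 they overlapped, since WT fasted replicates 3 and 4 lay within the K556R range and replicates 1 and 2 above it.

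Cebpd averaged 6.07 ± 1.53 CPM in K556R refed and 7.70 ± 2.41 CPM in WT refed livers, and 14.4 ± 5.49 CPM in K556R fasted and 20.96 ± 7.88 CPM in WT fasted livers (SD). Its differences were log2 -0.34 (SE 0.25) when refed and -0.52 (SE 0.23) when fasted, close to those of Cebpb in size and with larger errors. The K556R and WT ranges of Cebpd overlapped in every batch and feeding state. Without WT refed batch 2 replicate 1, the library with the highest refed Cebpd, the refed difference was -0.18, and without that library and K556R refed batch 1 replicate 4 it was -0.13 (SE 0.27), with Cebpb at -0.23 (SE 0.15).

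Cebpa averaged 376 ± 41.9 CPM in K556R refed and 445 ± 40.3 CPM in WT refed livers, and 385 ± 82.4 CPM in K556R fasted and 448 ± 73.6 CPM in WT fasted livers (SD). The differences were log2 -0.25 (SE 0.10) when refed and -0.22 (SE 0.097) when fasted. The groups were apart, K556R lower, in the fasted livers of batch 1 and in the refed livers of batch 2, and overlapped in the other sets. The fasted difference was -0.43 (SE 0.14) in batch 1 alone and 0.03 (SE 0.090) in batch 2 alone. Without WT fasted batch 1 replicate 3, whose Cebpa level was the highest of all libraries, the fasted difference was -0.12.

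Cebpg averaged 72.7 ± 11.3 CPM in K556R refed and 67.7 ± 7.49 CPM in WT refed livers, and 69.0 ± 6.26 CPM in K556R fasted and 63.6 ± 6.76 CPM in WT fasted livers (SD). Its differences were log2 0.10 (SE 0.085) when refed and 0.11 (SE 0.082) when fasted. The refed difference was 0.18 (SE 0.13) in batch 1 and 0.014 (SE 0.092) in batch 2, and 0.041 without K556R refed batch 1 replicate 4. The ranges overlapped in both feeding states.

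Over all genes tested, 0% were called in the refed state (0 genes by edgeR, 43 by DESeq2, with 1319 at an unadjusted p below 0.05 by edgeR), 0.103% in the fasted state and 1.24% for the mean of both states.

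Markers of other cells were set beside these differences. Adipocytes express Cebpa, Cebpb and Cebpd, and 2 of 6 adipocyte markers, Fabp4 and Cfd, could be tested, while Lep was at 0 in all 29 libraries and Adipoq in 23. All 6 markers together summed to 10.7 to 30.3 CPM in K556R refed and 11.4 to 30.8 CPM in WT refed livers, and to 11.2 to 33.0 CPM in K556R fasted and 29.2 to 43.4 CPM in WT fasted livers. Of 12 macrophage markers 0 were lower in K556R livers over both batches, with a median genotype difference of log2 0.17, while 6 were lower in batch 1, with a median of 0.034, and 1 in batch 2, with a median of 0.36. The part of either cell type in the genotype differences was not tested.

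In batch 1 the genotypes also differed in how the counts of their libraries followed the GC content of transcripts. The longest transcripts of Cebpb and Cebpa are GC-rich, at 67.2% and 62.6%, against a median of 49.4% over the genes tested, while Cebpd is at 51.6% and Cebpg at 43.3%. The slope of log2 CPM on GC content, after removal of batch means, had a median of -0.14 log2 units per 10 points of GC in K556R refed and 0.01 in WT refed livers of batch 1, and of -0.07 in K556R fasted and 0.08 in WT fasted livers of batch 1. WT fasted replicate 3 and WT refed replicate 2 of batch 1 had the steepest slopes, at 0.34 and 0.23. In batch 2 all slopes lay between -0.06 and 0.06. As means of both feeding states, the genotype differences of Cebpa, Cebpb, Cebpd and Cebpg were log2 -0.38, -0.47, -0.38 and 0.15 in batch 1 alone. In batch 2 alone they were -0.06, -0.38, -0.50 and 0.08. The part of GC content in these differences was not tested.

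With the slope of each library as a covariate, the mean genotype difference was log2 -0.13 (SE 0.062) for Cebpa against -0.23 (SE 0.070) without it, and 0.02 (SE 0.054) for Cebpg against 0.11 (SE 0.059) without it. For Cebpb it was -0.36 (SE 0.10) against -0.43 (SE 0.097), and for Cebpd -0.45 (SE 0.19) against -0.43 (SE 0.17). The refeeding differences hardly moved, with Cebpb at -1.27 (SE 0.096) and Cebpd at -1.37 (SE 0.18) as means of both genotypes. The covariate was added after the data had been seen.

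**Figure D3:**
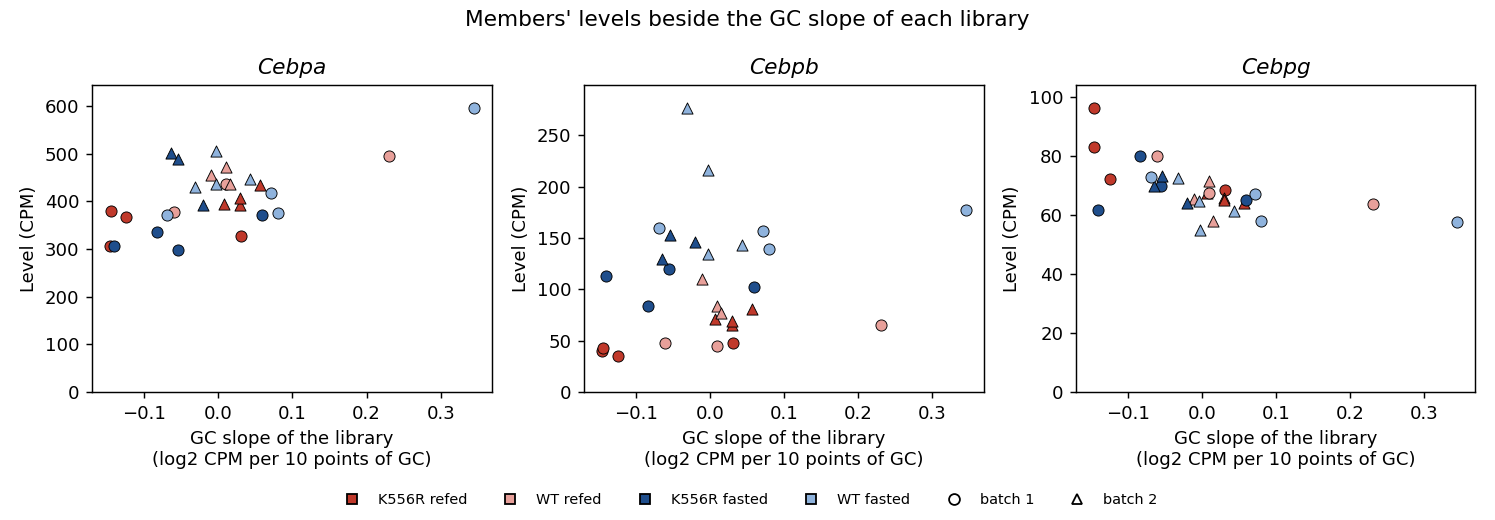
Level in CPM of Cebpa, Cebpb and Cebpg against the GC slope of each library (log2 CPM per 10 points of GC content, batch means removed), with colours for the 4 groups, circles for batch 1 and triangles for batch 2. The libraries at the right of each panel, WT fasted replicate 3 and WT refed replicate 2 of batch 1 with slopes of 0.34 and 0.23, hold 597 and 495 CPM of Cebpa.

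Cebpb and Cebpd moved together from library to library. Over the 29 libraries, with batch means of log2 CPM removed, Cebpd was the gene most like Cebpb among 10983 genes, at a Pearson r of 0.95. The r was 0.95 in batch 1 (15 libraries) and 0.94 in batch 2 (14 libraries). These points share the feeding state and the scaling of each library. The gene at rank 50 for likeness to Cebpb still had an r of 0.87, and Cebpb ranked 2 among the genes most like Cebpd. With the mean of each group within each batch removed as well, Cebpd was still the gene most like Cebpb, at r = 0.80 over both batches, 0.57 in batch 1 and 0.93 in batch 2. By this measure Cebpb ranked 9 among the genes most like Cebpd. In batch 2 the WT fasted replicates 1 and 2 were high in both genes and replicates 3 and 4 low in both. Cebpa had an r of 0.24 with Cebpb and 0.05 with Cebpd, and Cebpg one of -0.36 with Cebpb and -0.34 with Cebpd, batch means removed. In batch 2 alone those of Cebpg were 0.19 and 0.18. With group means removed as well, Cebpa had an r of 0.0030 with Cebpb and -0.40 with Cebpd, and Cebpg one of 0.14 and 0.11.

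**Figure D4:**
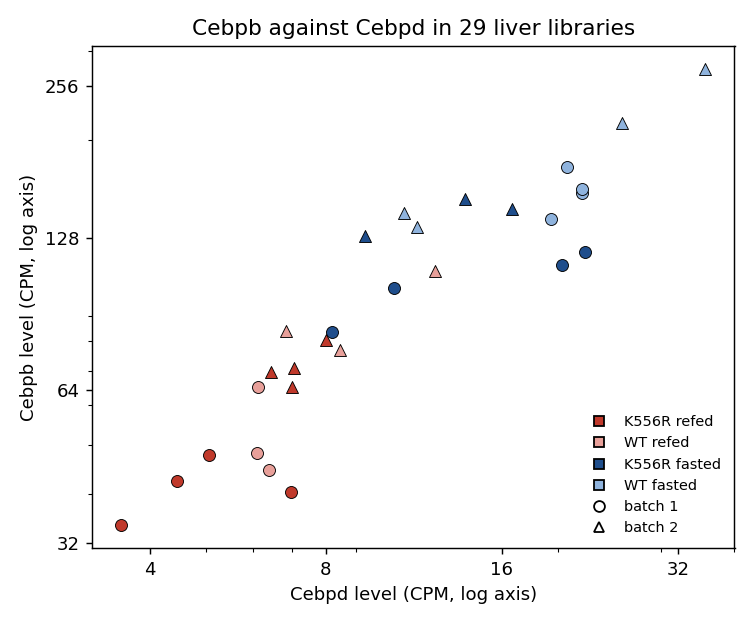
Level of Cebpb against that of Cebpd in 29 liver libraries, both in CPM on log axes, with colours for the 4 groups, circles for batch 1 and triangles for batch 2. The points run along a diagonal from K556R refed libraries at the lower left to the WT fasted replicates 1 and 2 of batch 2 at the upper right, at 216 and 277 CPM of Cebpb.

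After Cebpd, the genes most like Cebpb were Fbxo31, a subunit of a ubiquitin ligase (r = 0.94), Tbc1d8 (0.94), Ldb1, a cofactor of LIM-domain factors (0.93), and Prob1 (0.93), with batch means removed. Fbxo31 averaged 28.6 ± 7.38 CPM in K556R refed and 43.6 ± 11.1 CPM in WT refed livers, against 102 ± 14.9 CPM in K556R fasted and 124 ± 19.0 CPM in WT fasted livers (SD), a mean refeeding difference of log2 -1.71 (adjusted p = 4.72e-14, edgeR). Among the genes most like Cebpd were Cebpb (0.95), the clock gene Per1 (0.94), the kinase gene Pim3 (0.93) and Pck1, which encodes the gluconeogenic enzyme phosphoenolpyruvate carboxykinase (0.92). Per1 and Pim3 fell on refeeding, with differences of log2 -1.34 and -1.41 as means of both genotypes (adjusted p = 9.83e-07 and 9.61e-09, edgeR). Once group means were removed, 0 of the 4 genes named after Cebpd stayed among the first 5 for Cebpb, and Per1 and Pck1 were not among the first 5 for Cebpd.

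The genes most like Cebpa were Tmprss6, the liver protease that lowers hepcidin (0.84), Rab5if (0.83), Rnf10 (0.81), Cyhr1 (0.81) and Sh2b1, an adaptor of insulin signalling (0.81), and 0 of these 5 stayed among the first 5 once group means were removed. The 50 genes most like Cebpa had a median transcript GC content of 58.9%, against 49.6% for all genes compared. Those most like Cebpg were the phosphatase subunit genes Ppp4r2 (0.83) and Ppp6c (0.82), Ube2j1 (0.79), Eif3a (0.78) and Ssbp1 (0.76), and the 50 nearest had a median GC content of 41.7%. For Cebpb and Cebpd the corresponding medians were 53.2% and 52.8%. How much of the likeness to Cebpa and Cebpg follows GC content was not tested.

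Genes around the family in the same pathways were described from 4 lists, each by its refed minus fasted difference averaged over genotypes. The lists were chosen with earlier results of these data known. Their counts and medians are therefore descriptions, and setting them beside the share of all genes is no test of the lists. Over all genes tested the median of this difference was log2 0.01, with 12.8% called lower and 12.9% higher.

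Of 12 other bZIP genes that pair with C/EBP proteins or bind like sites, 4 fell, 2 rose and 6 did not pass, with a median difference of log2 -0.25. Junb, an AP-1 subunit, fell (log2 -0.66, SE 0.11, adjusted p = 6.12e-05, edgeR), and the clock-controlled factor Dbp fell as well (-0.76, SE 0.15, adjusted p = 0.000204, edgeR). Nfil3, a repressor at sites shared with Dbp, and Tef, a relative of Dbp, both fell, each with a difference of log2 -0.31 (adjusted p = 0.000420 and 0.000586, edgeR). The stress factors Atf4 and Atf5, partners of C/EBP proteins, rose, with differences of log2 0.25 and 0.39 (adjusted p = 0.00226 and 0.00579, edgeR). Cebpe, the family member of granulocytes, averaged 9.97 CPM over all libraries and did not pass (-0.20, adjusted p = 0.252, edgeR).

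Of 17 genes for signals upstream of the family and for its turnover, 11 fell, 1 rose and 5 did not pass, with a median of log2 -0.35. Il6ra and Il1r1, which encode the receptor chains for interleukin-6 and interleukin-1, fell, with differences of log2 -1.38 and -1.43 (SE 0.13 and 0.22, adjusted p = 2.00e-09 and 1.34e-05, edgeR). Il6ra averaged 36.7 ± 6.36 CPM in K556R refed and 50.5 ± 15.9 CPM in WT refed livers, against 113 ± 33.0 CPM in K556R fasted and 113 ± 24.3 CPM in WT fasted livers (SD, n = 8, 6, 7 and 8). Foxo1, a fasting factor that insulin holds out of the nucleus, fell (-0.92, adjusted p = 2.04e-08, edgeR), as did Irs2, an insulin receptor substrate (-1.27, adjusted p = 2.43e-06, edgeR).

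Further along the same list, Stat3 and Socs3, the transducer and the feedback inhibitor of interleukin-6 signals, fell, with differences of log2 -0.35 and -0.65 (adjusted p = 0.00153 and 0.0117, edgeR). Trib1, which directs C/EBPα to degradation, fell (-0.39, adjusted p = 9.76e-05, edgeR), while its partner ligase gene Cop1 stood at 0.01 (adjusted p = 0.898, edgeR). Crem, a cyclic AMP-responsive factor gene, was the 1 that rose (log2 0.21, adjusted p = 0.00362, edgeR). Creb1 and Nr3c1, for the cyclic AMP and glucocorticoid factors, stood at -0.02 and 0.05 and did not pass (adjusted p = 0.907 and 0.705, edgeR).

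Of 14 hepatocyte genes known as C/EBP targets, 4 fell, 0 rose and 10 did not pass, with a median of log2 -0.13. Those that fell belong to gluconeogenesis, amino acid breakdown and the insulin-like growth factor axis: Pck1 (log2 -1.59, SE 0.14, adjusted p = 1.63e-09, edgeR), the serine dehydratase gene Sds (-1.32, SE 0.20, adjusted p = 6.60e-06, edgeR), Igfbp1 (-1.54, SE 0.30, adjusted p = 0.000265, edgeR) and the tyrosine aminotransferase gene Tat (-0.83, SE 0.19, adjusted p = 0.00178, edgeR). Pck1 averaged 775 ± 240.1 CPM in K556R refed and 897 ± 186 CPM in WT refed livers, against 2448 ± 671 CPM in K556R fasted and 2597 ± 708 CPM in WT fasted livers. The glucose-6-phosphatase gene G6pc stood at 0.26 (adjusted p = 0.161, edgeR), and the plasma protein genes Alb and Ttr at 0.15 and 0.10 (adjusted p = 0.155 and 0.184, edgeR).

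Of 19 acute phase genes, 8 fell, 0 rose and 11 did not pass, with a median of log2 -0.22. Lbp, which encodes the lipopolysaccharide-binding protein, fell (log2 -0.75, SE 0.087, adjusted p = 1.48e-07, edgeR), as did the siderophore-binding Lcn2 (-0.83, SE 0.16, adjusted p = 0.000215, edgeR). The serum amyloid genes Saa3 and Saa1 fell too, with differences of -0.76 and -0.65 (adjusted p = 0.000519 and 0.00341, edgeR). The serum amyloid genes are close paralogs, as are Orm1 and Orm2, and reads could be split between them. The haptoglobin gene Hp and Crp stood at -0.12 and -0.04 and did not pass (adjusted p = 0.239 and 0.831, edgeR). Macrophage markers had 0 of 12 called and a median of -0.12, and neutrophil markers 0 of 3 tested, and the part of these cells in the acute phase differences was not tested.

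Without the 2 libraries farthest from their group mean, the counts lower and higher were 5 and 2 for the bZIP list, 11 and 1 for the upstream list, 4 and 1 for the targets and 11 and 0 for the acute phase list. In batch 1 alone they were 4 and 2, 10 and 1, 7 and 1, and 5 and 0, with 17.4% of all genes called in either direction. In batch 2 alone they were 5 and 0, 8 and 0, 3 and 0, and 9 and 0, with 18.2% of all genes called. In the K556R minus WT contrast averaged over feeding, 0 genes of any of the 4 lists were called, and the medians were log2 -0.08 for the bZIP, -0.05 for the upstream, -0.05 for the target and -0.08 for the acute phase list. The medians of the target and acute phase lists were 0.0096 and 0.032 in batch 1 alone and -0.16 and -0.12 in batch 2 alone. Over both batches, the smallest adjusted p-values of the 4 lists in this genotype contrast were those of 3 genes. They were Crem (log2 0.18, adjusted p = 0.0856), Gcgr, the glucagon receptor gene (-0.13, adjusted p = 0.117), and Dbp (-0.43, adjusted p = 0.139), all by edgeR.

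**Figure D5:**
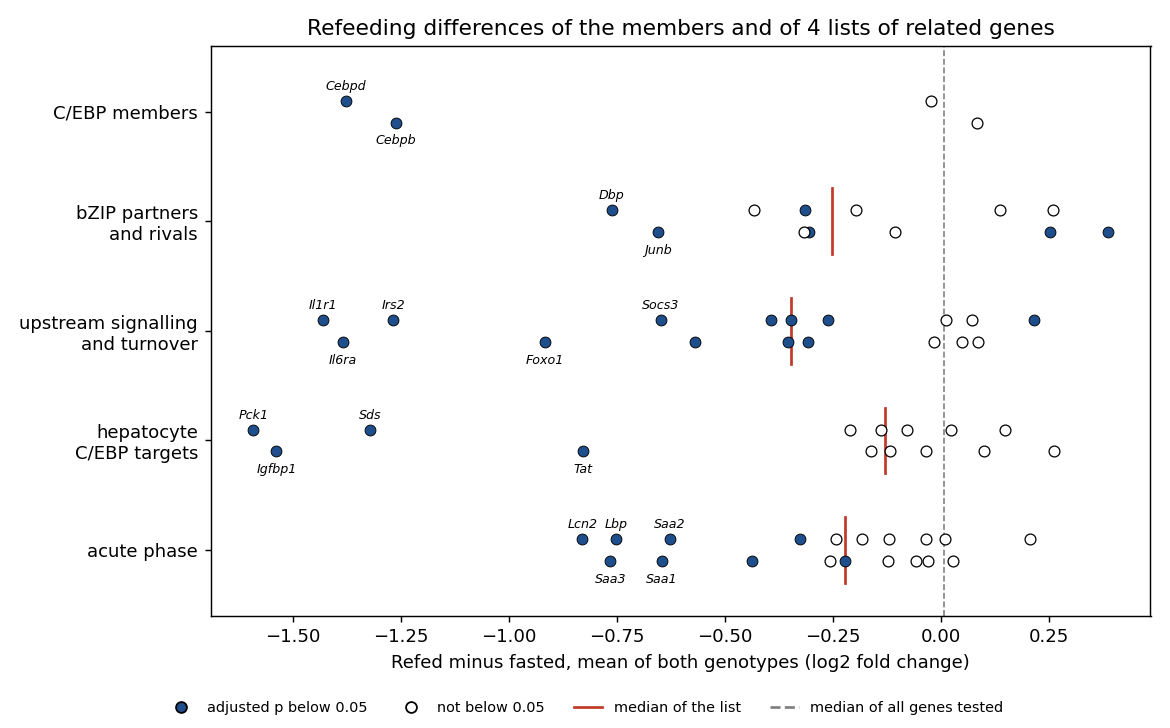
Refed minus fasted log2 fold change, averaged over genotypes, of the 4 members and of the genes of 4 lists, filled where the adjusted p is below 0.05 and open where it is not, with a red line at the median of each list and a dashed line at the median of all genes tested. Cebpb and Cebpd lie at -1.26 and -1.38, beside Il6ra, Il1r1 and Irs2 among the upstream genes and Pck1, Igfbp1 and Sds among the targets, while Cebpa and Cebpg lie near 0.

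Exons of other genes overlap those of the members, and whether the counting used strand is not stated in the labels. Tmem189, which overlaps Cebpb, had 203 to 967 counts per library and fell on refeeding (log2 -0.59, adjusted p = 3.65e-05, edgeR), against -1.26 for Cebpb. Spidr, which overlaps Cebpd, had 38 to 115 counts and stood at -0.03 (adjusted p = 0.867, edgeR). Gm45091, which overlaps Cebpa, had 4 to 31 counts and fell (-0.50, adjusted p = 0.0433, edgeR). These 3 lie on the opposite strand. Gm44836, on the strand of Cebpg, and Gm45095, opposite to it, had 0 to 11 and 0 to 9 counts and were not tested. Reads shared within such pairs could have been counted to either gene or to neither.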

How the data were processed

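RNA from mouse livers was selected with Poly-T and sequenced as 29 libraries, per the labels. The authors deposited 1 table of raw read counts per gene, also per the labels. The submitters' processing notes name STAR, TopHat, HTSeq, STAR-Fusion, edgeR, DESeq2 and the build mm10, without their roles, and the annotation release was not given.

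Symbols came from GENCODE M21 (54409 of 54532 IDs matched). Genes were kept with edgeR's filterByExpr (minimum count 10, minimum total 15), which left 15603 genes and 99.92% of counts. Library sizes were scaled by TMM. Group and batch were fitted with edgeR 4.0.16 (R 4.3.3, limma 3.58.1) by the quasi-likelihood test with Benjamini-Hochberg adjustment over all tested genes. Log2 CPM used a prior count of 2. DESeq2 1.42.0, another normalization, no filter, no batch term, each batch alone, a replicate block and leaving out each library were alternatives. The GC content of transcripts was computed with Biostrings 2.70.1. Promoters were scanned with Python 3.11.15, and figures were drawn with it and matplotlib 3.10.9. The fits were tested on simulated data.

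The members and lists were chosen with earlier results of these data known. Named were the members and Prox1, from each list up to 4 genes with the smallest p for refeeding and up to 2 for genotype, and the 5 genes most like each member at a mean log2 CPM no lower than 1. One result under this rule is not reported here. Other list genes named were chosen after their values were seen.

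No pairing of the samples by replicate number was seen: residuals of the same number in the same batch correlated at -0.39 to 0.36 (median -0.029, 40 pairs). Such correlations over all genes can miss a pairing and do not exclude one. Within groups, chi-square per degree of freedom between libraries was 10.5 to 157 over 92 pairs, so no library appeared to be deposited again. Depth was 14385218 to 27278251 counts per library, and the common biological coefficient of variation was 0.19.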

Additional observations from a re-analysis of the deposited data

Results flagged for a closer look

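None of the 36 group and batch sets of the 4 members tested held a library far from the others by Dixon's criterion. Among the other 52 named genes, 9 of 208 groups did, and chance alone marks about 1 in 20 groups. Among genes of the upstream list, Il1r1 stood at 115 CPM in WT refed batch 2 replicate 1, with the next library at 43.3 CPM, and Irs2 at 17.3 CPM in WT fasted batch 1 replicate 2, with the next at 27.3 CPM. Among bZIP genes, Dbp stood at 24.3 CPM in WT fasted batch 2 replicate 1, against 12.8 CPM in the next. Of the acute phase genes, Saa1 reached 733 CPM in WT fasted batch 2 replicate 3, against 219 CPM in the next, and Lbp was lowest at 82.1 CPM in K556R fasted batch 2 replicate 1, against 117 CPM in the next.

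Of the genes most like Cebpa, Rab5if stood at 69.6 CPM in WT fasted batch 1 replicate 3, the library with the highest Cebpa, against 55.7 CPM in the next. Med25, the gene nearest to Cebpa once group means were removed, stood at 51.8 CPM in that same library, against 40.6 CPM in the next, and at 29.4 CPM in K556R refed batch 1 replicate 3, against 35.3 CPM in the next. Ube2j1, among the genes most like Cebpg, stood at 56.6 CPM in K556R refed batch 1 replicate 4, the library farthest from its group, against 43.3 CPM in the next.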

How the results depend on the processing

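The refeeding falls of Cebpb kept direction and call under every alternative run, with the mean of both genotypes at log2 -1.30 to -1.23 without 1 library. Those of Cebpd did so except in batch 2 alone, where they were -0.92 in K556R and -1.19 in WT livers. Of 812 member values without 1 library, 786 held, as did 237 of 252 under other settings. Tested values held where direction and side of the threshold stayed, and genotype differences, which have no test, where they moved by less than the SD of libraries about the means of group and batch. Apart from the 2 values of Cebpd above and the fasted genotype difference of Cebpa, the others were changes of sign in differences of Cebpa and Cebpg that lay near 0. In batch 1 alone the refed minus fasted difference of Cebpa was 0.089 in K556R livers and 0.043 as the mean, the differences between genotypes' responses were 0.093 for Cebpa and 0.072 for Cebpg, and the fasted genotype difference of Cebpa was -0.43. In batch 2 alone Cebpg stood at -0.093 in K556R livers and -0.032 as the mean, and the fasted genotype difference of Cebpa was 0.031. For Cebpa in WT livers, refed minus fasted was 0.00076 with a replicate block, 0.013 without the 2 farthest libraries and 0.025 with the GC slope; the response difference of Cebpg was 0.014 with the replicate block and 0.022 with the GC slope. The last 2 settings were chosen after seeing the data. Without 1 library, Cebpa ranged from -0.073 to 0.022 for refeeding in K556R, -0.061 to 0.094 in WT, -0.047 to 0.030 as the mean and -0.13 to 0.028 for the response difference, and that of Cebpg from -0.072 to 0.032. The causes were not tested.

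Counts of genes called between the genotypes moved as follows. In the fasted state 16 became 45 without a filter, 2 without a batch term, with the replicate block or with the GC slope, 33 in batch 1, 0 in batch 2, 51 without the 2 libraries, 87 by DESeq2 and 2 to 46 without 1 library. In the refed state 0 became 10, 5, 7 and 3 with no filter, batch 1, batch 2 and without the 2 libraries, 43 by DESeq2 and up to 20 without 1 library. For the mean 194 became 98 without a batch term, 92 with the replicate block, 125 and 0 in batches 1 and 2, 424 by DESeq2 and 116 to 309 without 1 library. For refeeding, batch 1 alone gave 1497 called genes against 2397 in K556R, 846 against 1667 in WT and 2652 against 4001 as the mean, and batch 2 alone 592 in WT livers.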
